A study of Sus scrofa with 6 samples.

Results

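The genes of the translation initiation and elongation factors were followed in mature pig oocytes from prepubertal and adult females, on Affymetrix porcine arrays. A probe set, the group of short probes that reports 1 transcript, was included when the platform annotation gave it a single gene symbol that names an initiation factor (EIF1 to EIF6) or an elongation factor (EEF1 or EEF2), or was ETF1 or GSPT1. This gave 65 probe sets of 42 genes, out of 24123 probe sets on the array. EEF2, ETF1 and GSPT1 were not analysed here, and 6 probe sets whose annotation joins a factor to another gene were left out.

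There were 3 arrays of prepubertal (gilt) oocytes, which the labels call developmentally incompetent, and 3 of adult (sow) oocytes, which they call competent. In both groups the oocytes came from follicles of 2 to 6 mm, were matured in culture for 42 to 44 h and were freed of cumulus cells with hyaluronidase. They had extruded the first polar body, so they were at metaphase II. The arrays are named as biological replicates, but how many oocytes or females stood behind each is not given, so p-values measure only the spread between these samples.

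Translation begins when initiation factors load the small ribosomal subunit onto an mRNA and place it on the start codon. EIF2 brings the first tRNA, EIF2B recharges EIF2 with GTP, EIF3 holds the complex together and the EIF4 factors recruit the capped mRNA. Elongation factors then deliver each further tRNA. A maturing oocyte is almost silent in transcription, so its proteins are made from mRNAs stored during growth.

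The deposited arrays differed in level, and the trimmed mean signal ranged between 106 and 132 on prepubertal and between 123 and 161 on adult arrays. All values below were therefore brought to one distribution by quantile normalization, unless the deposited scale is named. Over all tested probe sets the log2 difference, prepubertal minus adult, had a median of −0.01 after this step and of −0.20 as deposited. Of 7 measured oocyte markers 6 were tested, namely GDF9, BMP15, NPM2, ZP2, ZP3 and ZP4, and the markers' summed signal was 5420 to 5782 in prepubertal and 4431 to 5149 in adult oocytes. The summed signal of 16 cumulus and granulosa markers was 431 to 542 in prepubertal and 472 to 551 in adult oocytes. Of these 16, 8 were tested, namely FST, HSD3B1, INHA, INHBA, KITLG, LHCGR, NR5A1 and SERPINE2. The other 8 were below the filter on low signal, namely AMH, CYP11A1, CYP19A1, FOXL2, FSHR, PTX3, STAR and TNFAIP6. The summed oocyte signal was higher on every prepubertal array. Of the 6 tested oocyte markers, 0 had an adjusted p under 0.05 in limma, beside 0.117% of all tested probe sets. What part the oocyte signal had in the results below was not tested.

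No translation factor passed the test on normalized values, and EIF4G2 came nearest. The filter on low signal kept 52 of the 64 member probe sets that are not array controls, covering 40 genes. Of these 52, 0 had an adjusted p under 0.05 in limma, against 14 of all 12000 tested probe sets (0.117%). Before adjustment 5 members had a p under 0.05, which is 9.62% of them, beside 10.8% of all tested probe sets. Among these EIF1B, EIF2S1 and EIF3M had higher values in prepubertal oocytes (3 members, 5.77%, beside 5.03% of all tested). EIF2B2 and EIF4G2 had lower ones (2 members, 3.85%, beside 5.83%), with EIF2B2 passing the filter only through adult oocytes. On the deposited scale 4 members had such a p, namely EIF2B1, EIF2B2, EIF4A2 and EIF4G2 (7.84%, beside 14.7% of all tested). All 4 had lower values, and 13.6% of all tested probe sets had such a p with a lower value. The split by direction thus depended on the scale for all tested probe sets too, and it is not read as a trait of the members. As deposited 1 of 51 members passed, EIF4G2, which was lower, as were 0.442% of all tested probe sets on that scale.

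**Figure D1:**
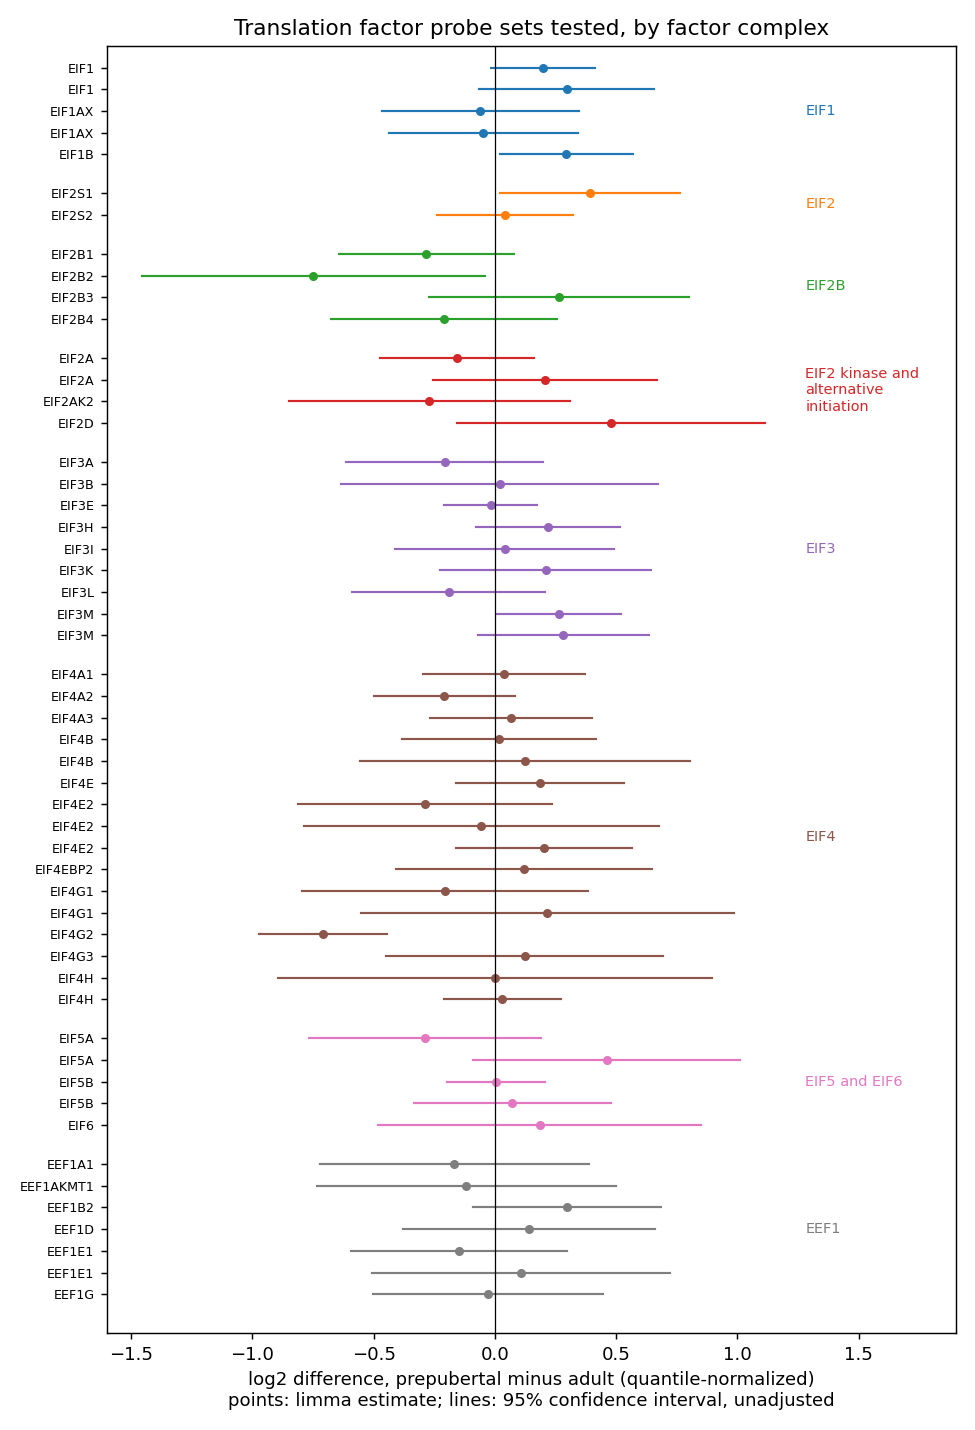
Log2 difference of each of the 52 tested translation factor probe sets, prepubertal minus adult, after quantile normalization (x axis), grouped by factor complex (colour). Points are limma estimates and lines are unadjusted 95% confidence intervals; the estimates run between −0.75 for EIF2B2 and 0.48 for EIF2D, and the interval of EIF4G2 is the one farthest from 0.

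The members' differences were small and lay on both sides of 0. Their median log2 difference was 0.04, and 32 of 52 were above 0, where 48.8% of all tested probe sets were. On the deposited scale the median was −0.17 and 15 of 51 lay above 0, beside a median of −0.20 and 25.2% for all tested probe sets. The groups did not overlap for 6 members (11.5%), beside 16.2% of all tested probe sets. A probe set each of EIF1, EIF1B, EIF2D and EIF3M was higher on every prepubertal array than on any adult one (7.69%, beside 7.35% of all tested). One each of EIF2B1 and EIF4G2 was lower on all of them (3.85%, beside 8.82%). EIF2D passed the filter only through prepubertal oocytes, so its place among the higher ones is not read. As deposited the groups did not overlap for 7 members, namely EIF1AX, EIF2A, EIF2AK2, EIF2B1, EIF2B4, EIF4G2 and EIF5A (13.7%). Each of these was lower on all prepubertal arrays, as were 17.1% of all tested probe sets. Since only 25.2% of all tested probe sets lay above 0 on that scale, the lack of higher members is not read.

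The filter on low signal shaped some of these counts. Of the 52 tested members 4 had a mean log2 signal below the filter level in one group and passed through the other, EIF2D and EIF3B through prepubertal oocytes and EIF2B2 and EIF4E2 through adult oocytes (1 probe set each), as did 8.64% of all tested probe sets. Among the other 48 members, 4 had an unadjusted p under 0.05 in limma and 5 showed no overlap between the groups. The matching shares over all tested probe sets were not counted, so these counts are not read as more or fewer than usual.

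How closely a difference was measured depended on the signal. The SE of the log2 difference ranged from 0.09 to 0.41 with a median of 0.19, against 0.22 over all tested probe sets. For 20 of the 52 members the 95% confidence interval stayed within a 1.5-fold change in both directions. Of these, 18 were among the 27 members with a mean signal of at least 100, a level chosen after the values were seen. The other 32 intervals left room for a change of more than 1.5-fold in at least 1 direction.

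The EIF4 factors bring the capped mRNA to the ribosome, and EIF4G2 was the member with the smallest p-value. EIF4G2 encodes DAP5, a scaffold related to EIF4G1 that lacks the part binding the cap-binding protein and serves initiation without the usual cap complex. Its normalized signal was 7343, 6139 and 8503 on the prepubertal arrays, against 12278, 10229 and 13353 on the adult arrays. Each prepubertal array lay below each adult array, and the highest prepubertal value was that of replicate 3. Where a sample holds several oocytes, less of an mRNA per cell and fewer cells that carry it cannot be told apart. The log2 difference was −0.71 ± 0.12 (SE), 1.63-fold lower, with a 95% confidence interval of −0.97 to −0.44 and a limma adjusted p of 0.0501, just short of the threshold.

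As deposited, EIF4G2 signals were 7732, 5285 and 8414 in prepubertal oocytes and 12388, 10081 and 13107 in adult oocytes. On this scale EIF4G2 fell 1.68-fold (log2 difference −0.75 ± 0.16 SE, limma adjusted p = 0.0291). That call was lost without adult replicate 1, 2 or 3 or prepubertal replicate 2, with adjusted p between 0.0973 and 0.237 for these 4. It held without prepubertal replicate 1 or 3 (0.000891 and 0.00658). After quantile normalization EIF4G2 passed without prepubertal replicate 1 (0.0278), but in none of the 5 fits that left out another array. Scaling to a common trimmed mean gave a log2 difference of −0.48 (adjusted p = 0.179). In each setting tried the value was lower in prepubertal oocytes.

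**Figure D2:**
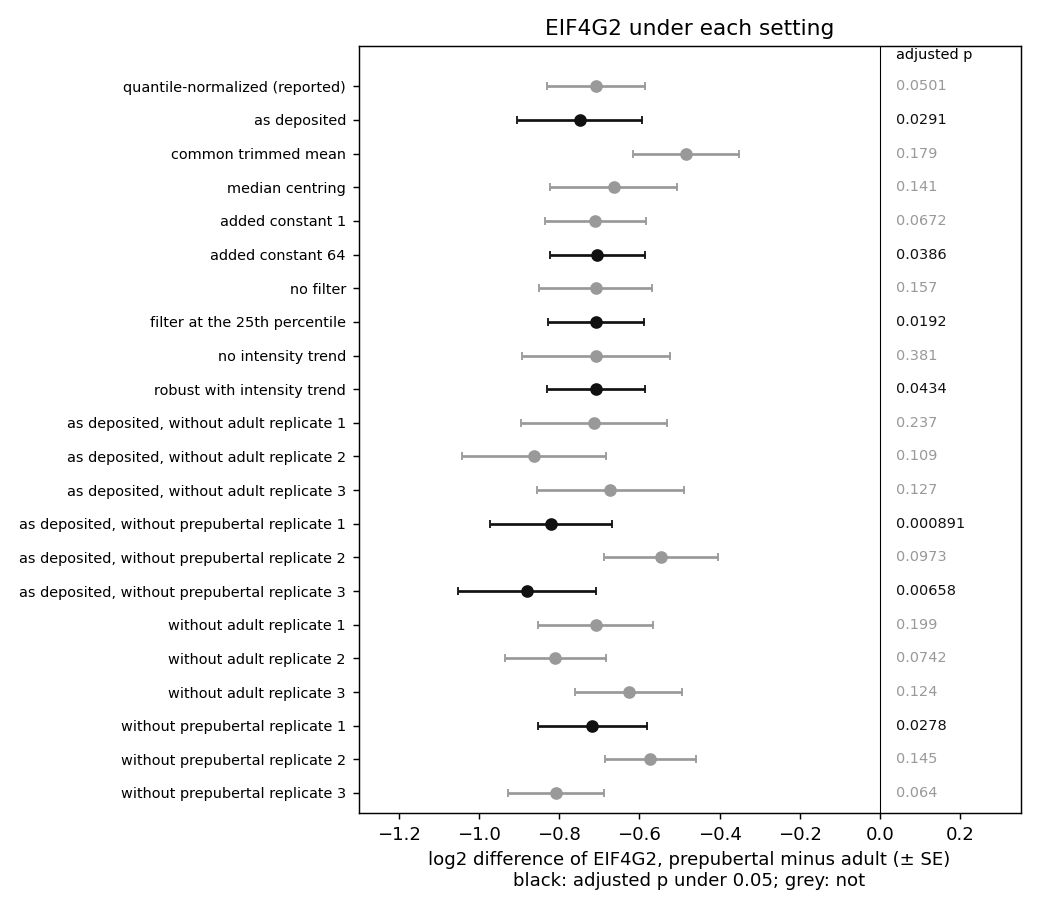
Log2 difference of EIF4G2, prepubertal minus adult (x axis, ± SE), under each processing setting except the replicate block and with each array left out (rows). The limma adjusted p is at the right. Every estimate lies below 0, between −0.48 and −0.88; black points pass the threshold of 0.05 and grey points do not.

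The other scaffold genes of the family showed no common direction. EIF4G3, a scaffold close to EIF4G1, had normalized signals of 78.4 to 110 in prepubertal and 56.5 to 142 in adult oocytes. The groups overlapped, and the log2 difference was 0.12 ± 0.26 (SE). EIF4G1, the main scaffold of cap-dependent initiation, had a pair of probe sets near background with log2 differences of 0.22 ± 0.35 and −0.20 ± 0.27 (SE). Their signals lay between 4.33 and 42.8, so EIF4G1 had no settled direction.

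EIF4A2, an RNA helicase that unwinds the leader of an mRNA, had 2221, 1706 and 1622 in prepubertal oocytes, against 2335, 2148 and 1900 in adult oocytes. Replicate 1 was the highest of each group, and the groups overlapped. The normalized log2 difference was −0.21 ± 0.13 (SE, limma adjusted p = 0.597) and −0.49 as deposited (adjusted p = 0.29). On the deposited scale without prepubertal replicate 1, EIF4A2 passed at 1.65-fold lower (adjusted p = 0.0245), in a fit where 562 probe sets (4.68%) passed with lower values.

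The helicase gene EIF4A1 had signals of 249 to 293 in prepubertal and 233 to 280 in adult oocytes, a log2 difference of 0.04 ± 0.15 (SE). EIF4A3, the related helicase of the exon junction complex, had 765 to 1134 in prepubertal and 879 to 1013 in adult oocytes (0.07 ± 0.15). Neither separated the groups.

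EIF4H, which helps the helicase, had 3998, 3483 and 3438 in prepubertal and 4111, 3362 and 3245 in adult oocytes on its brighter probe set. The values interleaved, and the 95% confidence interval of −0.21 to 0.27 stayed well inside a 1.5-fold change. A dim EIF4H probe set had a log2 difference of 0.00 with an interval of −0.89 to 0.90, too wide to compare the groups. EIF4B, another cofactor of the helicase, had log2 differences of 0.02 ± 0.18 and 0.12 ± 0.31 (SE) on a pair of probe sets.

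EIF4E, the cap-binding protein, had 328, 296 and 291 in prepubertal oocytes, against 259, 314 and 229 in adult oocytes. Adult replicate 2 lay above 2 of the 3 prepubertal arrays, and the log2 difference was 0.19 ± 0.16 (SE, adjusted p = 0.699). EIF4E2, a cap-binding relative that represses translation, had 3 tested probe sets with log2 differences of 0.20, −0.06 and −0.29, none of them past the threshold. EIF4EBP2, which blocks EIF4E from the scaffold, had 5 probe sets of which 4 were below the filter, with signals of at most 28.1. The tested EIF4EBP2 probe set had a log2 difference of 0.12 ± 0.24 (SE).

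**Figure D3:**
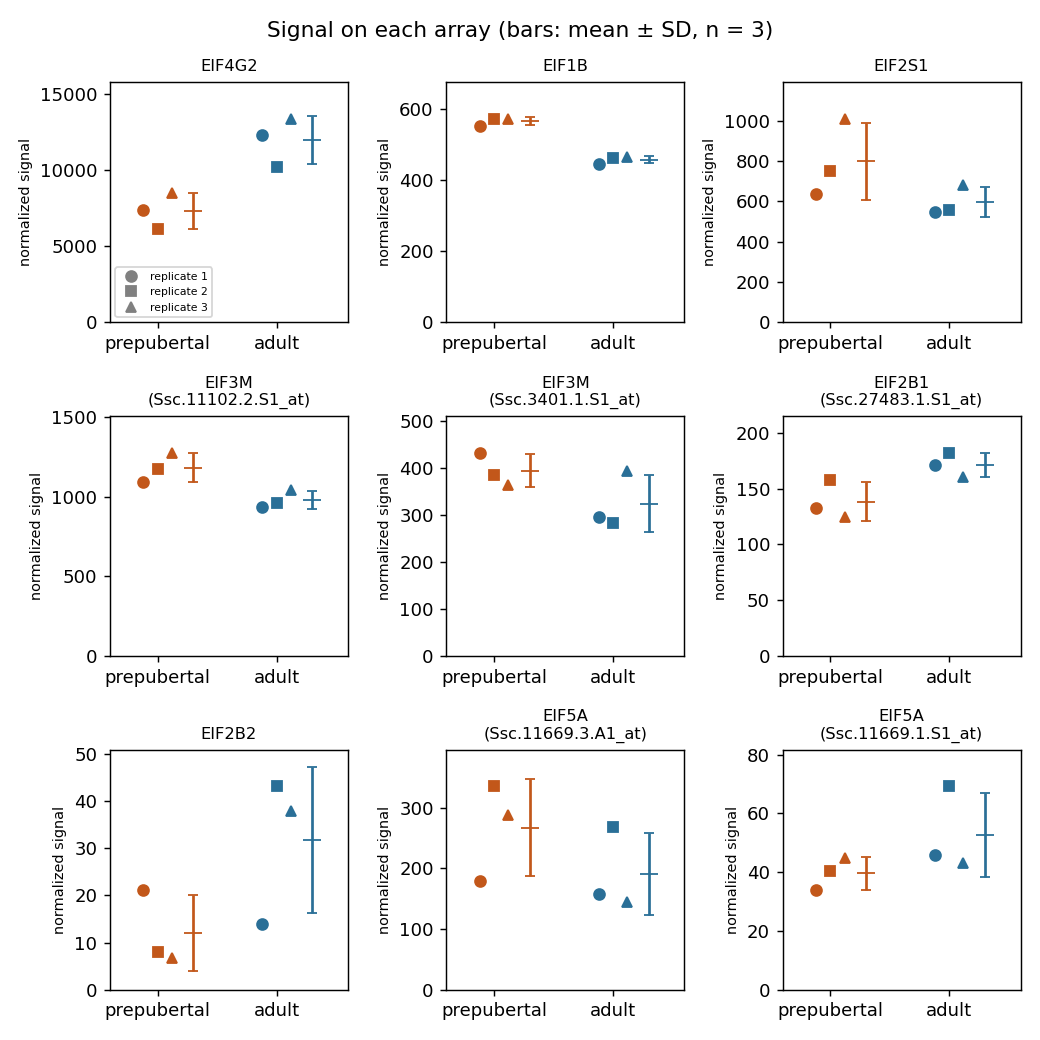
Normalized signal on each array (y axis, from 0) for EIF4G2, EIF1B, EIF2S1, both EIF3M probe sets, EIF2B1, EIF2B2 and both EIF5A probe sets, with prepubertal arrays in orange and adult arrays in blue. Symbols mark replicate numbers and bars give the mean ± SD of 3 arrays; EIF4G2, EIF1B, 1 of the EIF3M probe sets and EIF2B1 show no overlap between the groups.

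EIF1 and EIF1A keep the scanning ribosome open until a start codon is found. EIF1B, a close relative of EIF1, had 553, 572 and 572 in prepubertal oocytes, against 447, 462 and 465 in adult oocytes. Both groups were tight and did not overlap. The log2 difference was 0.30 ± 0.13 (SE), with a limma adjusted p of 0.423 and an unadjusted p of 0.0372. As deposited it was 0.01, and the groups overlapped.

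EIF1 itself had 4197, 3932 and 4346 in prepubertal oocytes, against 3785, 3877 and 3217 in adult oocytes, again without overlap. Its log2 difference was 0.20 ± 0.10 (SE, adjusted p = 0.491), and −0.07 as deposited. A second EIF1 probe set had 2336, 2690 and 2774 in prepubertal and 2561, 2385 and 1535 in adult oocytes (0.30 ± 0.17). Adult replicate 3 was the lowest array on both EIF1 probe sets.

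EIF1AX, the X-linked EIF1A gene, had log2 differences of −0.06 ± 0.19 and −0.05 ± 0.18 (SE) on a pair of probe sets that matched each other closely. EIF1AY, whose human namesake lies on the Y chromosome, had signals of 1.45 to 6.03 in prepubertal and 2.55 to 10.8 in adult oocytes. It stayed below the filter in these female cells. The median of the 5 tested probe sets of this group was 0.20 after quantile normalization and −0.07 as deposited.

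EIF2 carries the initiator tRNA, and phosphorylation of its alpha subunit slows translation when a cell is stressed. EIF2S1, which encodes that alpha subunit, had 634, 750 and 1008 in prepubertal oocytes, against 548, 559 and 680 in adult oocytes. Only adult replicate 3 reached into the prepubertal range. The log2 difference was 0.39 ± 0.17 (SE, 1.31-fold higher, unadjusted p = 0.0396, adjusted p = 0.434), and 0.12 as deposited. It was 0.21 without prepubertal replicate 3 and 0.54 without prepubertal replicate 1.

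EIF2S2, the beta subunit, had 918, 1056 and 1159 in prepubertal and 988, 938 and 1112 in adult oocytes. These overlapped, and the log2 difference was 0.04 ± 0.13 (SE) after quantile normalization and −0.23 as deposited. EIF2AK2, the kinase PKR that phosphorylates the alpha subunit, had a normalized log2 difference of −0.27 ± 0.27 (SE). Its signals were 32.3, 32.7 and 12.3 in prepubertal oocytes, against 37.0, 32.9 and 29.1 in adult oocytes.

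EIF2B exchanges GDP for GTP on EIF2, and 3 of its 4 tested genes had lower values in prepubertal oocytes. Of these 3, EIF2B2 passed the filter only through adult oocytes, which favours a low value. The median log2 difference of EIF2B was −0.25, and −0.43 as deposited. Both medians include EIF2B2, so neither they nor the count are read as a direction. With no filter the normalized median was −0.21. EIF2B1, a regulatory subunit that senses phosphorylated EIF2, had 133, 158 and 124 in prepubertal oocytes, against 172, 182 and 160 in adult oocytes. The groups did not overlap, with prepubertal replicate 2 just under adult replicate 3. It had a log2 difference of −0.28 ± 0.17 (SE, adjusted p = 0.558), and a second EIF2B1 probe set lay below the filter.

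EIF2B2, another regulatory subunit, had the lowest estimate of the tested members, a log2 difference of −0.75 ± 0.33 (SE). It passed the filter only through adult oocytes, which favours a low estimate, so its p is not read here. It was measured near background, at 21.2, 8.00 and 6.66 in prepubertal oocytes, against 14.0, 43.2 and 38.0 in adult oocytes. Replicate 1 of each group ran against the others, with the prepubertal value above the adult one. EIF2B4, also a regulatory subunit, had a log2 difference of −0.21 ± 0.21 (SE), and EIF2B3, which belongs to the catalytic part, one of 0.26 ± 0.25.

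A pair of genes with related names act apart from the EIF2 complex. EIF2D, which can deliver initiator tRNA without GTP, had 20.3, 15.4 and 43.0 in prepubertal oocytes, against 13.4, 12.5 and 13.6 in adult oocytes. The groups did not overlap after quantile normalization, but prepubertal replicate 3 stood well above its partners. Its log2 difference was 0.48 ± 0.29 (SE), in signals near background. EIF2D passed the filter only through prepubertal oocytes, so neither the direction nor the lack of overlap is read here. EIF2A, an alternative initiation factor that is not a subunit of EIF2, had log2 differences of −0.16 ± 0.15 and 0.21 ± 0.21 (SE) on its probe sets.

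EIF3 is a large complex of many subunits that bridges the ribosome and the EIF4 factors. Its 9 tested probe sets, of 8 genes, had a median log2 difference of 0.04, with 6 above 0 (as deposited, −0.06, with 2 above 0). EIF3M, a subunit of its structural core, was measured by a pair of probe sets. The brighter EIF3M probe set had 1092, 1176 and 1276 in prepubertal oocytes, against 936, 963 and 1043 in adult oocytes, without overlap. The other had 433, 387 and 365 in prepubertal and 296, 283 and 394 in adult oocytes, where adult replicate 3 overlapped. Both gave nearly the same estimate, log2 differences of 0.26 ± 0.12 and 0.28 ± 0.16 (SE, adjusted p = 0.448 and 0.546). As deposited these were −0.02 and 0.01.

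EIF3E, another subunit of that core, had 4409, 4525 and 4170 in prepubertal oocytes, against 4239, 4286 and 4749 in adult oocytes. It was the most closely measured member, at −0.02 ± 0.09 (log2 difference, SE), with a 95% confidence interval of −0.21 to 0.17. As deposited the difference was −0.24, close to the median shift of all tested probe sets.

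EIF3H, which also belongs to it, had 770, 910 and 879 in prepubertal and 668, 685 and 845 in adult oocytes (log2 difference 0.22 ± 0.14 SE). Of the other subunits, EIF3A had a log2 difference of −0.21 ± 0.19, EIF3B 0.02 ± 0.30 and EIF3I 0.04 ± 0.21. EIF3K had 0.21 ± 0.20 and EIF3L −0.19 ± 0.18. None of these separated the groups. Both EIF3D probe sets lay below the filter, and EIF3D, like EIF1AY, was not tested.

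EIF5B joins the ribosomal subunits at the end of initiation. Its brightest probe set had 3775, 4202 and 4427 in prepubertal oocytes, against 4102, 3932 and 4319 in adult oocytes. The groups interleaved, the estimate being 0.00 ± 0.09 (log2 difference, SE; 95% confidence interval −0.20 to 0.21). A dimmer one had 0.07 ± 0.19, and the remaining one lay below the filter. EIF6, which keeps free large subunits from joining too early, had 20.5, 48.9 and 39.0 in prepubertal and 50.0, 16.6 and 25.2 in adult oocytes (0.18 ± 0.31).

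EIF5A, despite its name, mainly helps the ribosome through difficult stretches during elongation and at termination. Its probe sets disagreed. The brighter had 178, 335 and 287 in prepubertal oocytes, against 158, 268 and 145 in adult oocytes, a log2 difference of 0.46 ± 0.25 (SE, adjusted p = 0.529). The dimmer had 33.8, 40.2 and 45.0 in prepubertal oocytes, against 45.9, 69.2 and 42.9 in adult oocytes, a log2 difference of −0.29 ± 0.22 (adjusted p = 0.666). The estimates lay 0.75 apart, so EIF5A had no single direction.

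EEF1 delivers tRNAs to the elongating ribosome: EEF1A1 carries the tRNA, and EEF1B2, EEF1D and EEF1G form the exchange complex that recharges it. EEF1B2 had 345, 579 and 493 in prepubertal oocytes, against 367, 374 and 379 in adult oocytes. Prepubertal replicate 1 lay below all adult arrays and the other two above them. The log2 difference was 0.30 ± 0.18 (SE, adjusted p = 0.57), and 0.02 as deposited. It was 0.50 without prepubertal replicate 1 and 0.14 without prepubertal replicate 2. EEF1D had a log2 difference of 0.14 ± 0.24 and EEF1G one of −0.03 ± 0.22.

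EEF1A1 was read by an array control probe set placed in the middle of the transcript, which took no part in the tests. This had 1290, 923 and 884 in prepubertal oocytes, against 1322, 867 and 706 in adult oocytes, with replicate 1 highest in each group. Of 3 other EEF1A1 probe sets 2 lay below the filter, and the tested one had a log2 difference of −0.17 ± 0.25 (SE). The array also carries control probe sets at both ends of elongation factor 1 alpha, which the annotation lists under another symbol. Their 3′ to 5′ signal ratio, a gauge of RNA length after amplification, was 28.8, 46.4 and 47.7 on prepubertal arrays and 30.1, 42.5 and 65.8 on adult arrays. The ratio was lowest on replicate 1 of each group and the groups overlapped.

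EEF1E1 and EEF1AKMT1 carry the EEF1 name without being subunits of the factor. EEF1E1, a scaffold of the multi-synthetase complex, had log2 differences of −0.15 ± 0.21 and 0.11 ± 0.28 (SE) on its probe sets. EEF1AKMT1, a methyltransferase that acts on EEF1A, had −0.12 ± 0.28 on the tested one. With these included, the 7 tested EEF1 probe sets had a median of −0.03, and −0.16 as deposited.

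**Figure D4:**
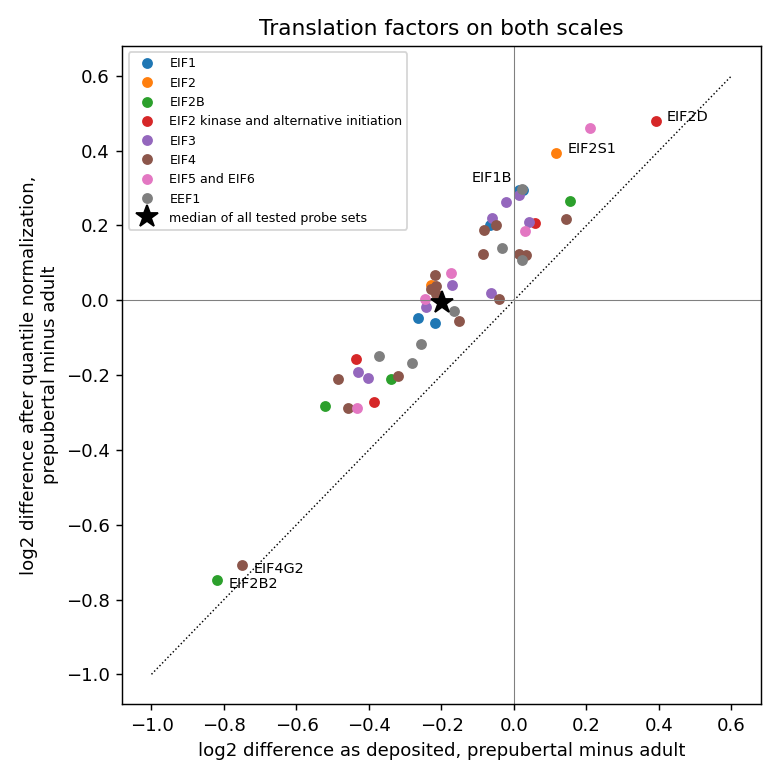
Log2 difference of each tested translation factor probe set, prepubertal minus adult, as deposited (x axis) and after quantile normalization (y axis), coloured by complex, with the dotted line marking equal values. The points lie above the line; the star, at −0.20 and −0.01, is the median of all 12000 tested probe sets, and EIF4G2 and EIF2B2 lie apart at the lower left.

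The choice of scale moved most members together, as the plot of both scales shows. The EIF4 median was 0.03 after quantile normalization and −0.22 as deposited, and that of EIF5 and EIF6 was 0.07 and −0.17. No complex had a median beyond 0.25 in either direction after quantile normalization, and EIF2, with 2 probe sets, had 0.22. The EIF2B median was below 0 on both scales, with EIF2B2 passing the filter only through adult oocytes. So was the EEF1 median, but it was 0.04 with a common trimmed mean and −0.15 to 0.04 with an array left out, so its sign was not settled. Those of EIF1, EIF2, EIF3, EIF4, of EIF5 and EIF6, and of the EIF2 kinase and alternative initiation genes (0.03 and −0.16) turned sign with the scale.

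Repeated measurement of a gene gave a mixed picture. Of 11 genes with more than 1 tested probe set, 6 had estimates of the same sign and 5 of opposite sign after quantile normalization. EIF1, EIF1AX, EIF3M, EIF4B, EIF4H and EIF5B were alike in sign, with gaps of at most 0.11 between their log2 differences. EEF1E1, EIF2A, EIF4E2, EIF4G1 and EIF5A were not, with gaps of 0.26 to 0.75. Near-identical relatives such as EIF1 and EIF1B, or EIF4A1 and EIF4A2, may share binding to each other's probes, which was not tested.

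Single arrays weighed differently on the members. Adult replicate 3 was the array farthest from the middle value of its group for 26 of 52 members (50.0%), and for 34.9% of all tested probe sets. Among prepubertal arrays, replicate 1 was farthest for 19 members (36.5%), beside 39.2% of all tested probe sets. Without prepubertal replicate 1, 1 member passed the threshold with a lower value after quantile normalization (1.96%, beside 0.742% of all tested probe sets). As deposited 2 members passed with lower values (3.92%, beside 4.68%). In these fits 0 members passed with higher values, where 106 of the 12000 tested probe sets did after quantile normalization and 55 as deposited.

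Other genes of translation control were compared from a list of 62, which held poly(A)-binding proteins, the mTOR pathway, CPEB proteins, EIF2 phosphatase subunits, recycling factors and mitochondrial factors. Of these, 32 genes had a probe set with a single symbol, and the recycling factors were not among them. Tested were 25 genes with 34 probe sets. None passed the adjusted threshold in limma, where 0.117% of all tested probe sets did on normalized values. Before adjustment 1 probe set with a higher value and 2 with lower values had a p under 0.05, beside 5.03% and 5.83% of all tested probe sets. The median log2 difference was −0.11, with 13 of 34 above 0, where 48.8% of all tested probe sets were.

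UPF3B, a factor of nonsense-mediated mRNA decay, gave both of the lower ones. Its brighter probe set of that pair had 116, 79.1 and 92.0 in prepubertal oocytes, against 161, 150 and 166 in adult oocytes (log2 difference −0.66 ± 0.18 SE, adjusted p = 0.19). The dimmer had 23.7, 38.4 and 49.6 in prepubertal oocytes, against 62.6, 64.7 and 66.9 in adult oocytes (−0.63 ± 0.23, adjusted p = 0.329). Neither overlapped between the groups, but 3 further UPF3B probe sets had log2 differences of −0.07, 0.42 and 0.01. TACC3, known in frog oocytes as maskin, a partner of CPEB, had 1402, 1515 and 1933 in prepubertal oocytes, against 1268, 1365 and 1256 in adult oocytes. It was higher on each prepubertal array (0.30 ± 0.13, adjusted p = 0.43), and 0.02 as deposited.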

How the data were processed

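RNA was captured by its poly(A) tail, amplified in 2 cycles, labelled with biotin and hybridized, per the labels' protocols, so signal comes mainly from 3′ ends and depends on tail length. The values are the signal per probe set on a linear scale that the authors deposited, made with MAS5 per the submitters' processing notes. Which version and scaling target were used is not given in the sources used here. All 6 columns matched a sample (0 unmatched).

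Computed here were log2(signal + 16), quantile normalization between arrays and a limma fit (limma 3.58.1, R 4.3.3; eBayes with intensity trend), prepubertal minus adult, 2-sided. Folds are on this scale, which understates dim genes; normalized signals are it turned back, less 16. The 124 control probe sets were not tested, nor were those of the 23999 others with a mean below the median, which left 12000. Adjusted p-values are Benjamini-Hochberg over these, with a threshold of 0.05. RefSeq's Sscrofa11.1 gene table gave the same symbol for all 65 members.

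Members, lists and normalization were chosen with earlier results of these data known. Probe sets named in full were those past the threshold on either scale, in each complex the 2 with the smallest p and the one with the highest mean, and those of genes whose probe sets differ in sign by more than 0.5. Other members were added to account for the whole list. Of other translation control genes, the 3 probe sets with the smallest p were named. The fit was tested on simulated data. Leaving out arrays on the deposited scale was added after seeing the data. The number of arrays limits the precision.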

Additional observations from a re-analysis of the deposited data

How the results depend on the processing

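Of the results, EIF4G2 kept its direction under every alternative run, and its adjusted p ranged from 0.00364 to 0.381 over the 10 alternatives other than leaving out arrays. Its side of the threshold was not stable, as 5 of these 10 passed. The number of translation factors past the threshold was 0 after quantile normalization and in 6 of the 12 alternatives that left out no array. It was 1, EIF4G2, in the other 6: as deposited, with the replicate block, with an added constant of 64, with the filter at the 25th percentile, with the robust fit and at an adjusted p of 0.1. Leaving out each array gave 0 to 1 after quantile normalization and 0 to 2 as deposited. The count of all probe sets past the threshold was 14, and it was 57 as deposited, 7 with median centring, 2 with an added constant of 1, 26 with 64, 2 with no filter, 50 with the filter at the 25th percentile, 0 without an intensity trend (limma; 1180 at an unadjusted p under 0.05), 28 with the robust fit and 78 at an adjusted p of 0.1. Leaving out each array gave 0 (limma, without adult replicate 2; 935 at an unadjusted p under 0.05) to 195 (without prepubertal replicate 1) after quantile normalization and 3 to 617 as deposited, where leaving out prepubertal replicate 3 gave 35. The cause was not tested.

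Whether the replicate numbers pair the arrays was not settled. Deviations of same-numbered arrays from their group means correlated at 0.08, 0.02 and 0.03 over 12000 probe sets. Not every array correlated best with its own number. The deposited trimmed mean signal, however, was highest on replicate 1 and lowest on replicate 2 of each group. With the replicate block 38 probe sets passed, 1 of them a translation factor, EIF4G2 (limma adjusted p = 0.00364). The SE of EIF4G2 was 0.07 with the block and 0.12 without it.

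Medians moved mainly with the scale. The median of all members was −0.17 as deposited and −0.086 with median centring. As deposited the medians were −0.066 for EIF1, −0.16 for the EIF2 kinase and alternative initiation genes, −0.43 for EIF2B, −0.22 for EIF4 and −0.17 for EIF5 and EIF6. Median centring gave 0.018 for EIF1, −0.079 for the EIF2 kinase and alternative initiation genes and −0.13 for EIF4. With no filter EIF1 had 0.076, and with 1 probe set per gene the EIF2 kinase and alternative initiation genes had −0.16. Leaving out each array gave 0.069 to 0.25 for EIF1 and 0.029 to 0.19 for EIF3.

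Signs turned with the scale for many members, as 32 of 52 lay above 0 after quantile normalization and 15 of 51 as deposited. Of those named in full, EIF1 (0.20) was −0.066 as deposited, EIF2S2 −0.23, the brighter EIF3M probe set (0.26) −0.022 and EIF5B −0.25. Other members turned too, such as EIF3H (0.22, and −0.059 as deposited) and EIF4E (0.19 and −0.083). With median centring EIF2S2 was −0.14 and EIF5B −0.16. EIF3E was 0.022 with a common trimmed mean. With an array left out, EIF3E ranged from −0.050 to 0.036, EIF2S2 from −0.036 to 0.13 and EIF5B from −0.046 to 0.066. Signal near background limits EIF2B2, EIF2D, EIF4G1 and EIF6.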
